A study of Drosophila melanogaster with 4 samples.

Results

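The circadian clock genes described here are 10 genes of Drosophila melanogaster, chosen by their locus tags among the 17772 genes of the count matrices. They are per (Dmel_CG2647), tim (Dmel_CG3234), Clk (Dmel_CG7391), cyc (Dmel_CG8727), cry (Dmel_CG3772), vri (Dmel_CG14029), Pdp1 (Dmel_CG17888), cwo (Dmel_CG17100), dbt (Dmel_CG2048) and sgg (Dmel_CG2621), followed in neurons, glia, photoreceptors and fat body of the brain. Single nuclei were profiled from brains of flies of the genotype Canton S (B), which the study also writes as w1118 Canton S (B). The 4 groups were females on control medium, males on control medium, females on medium with 250 µM NaAsO2 (sodium arsenite) and males on that medium, each for 6 days. The flies were 3 to 5 days old when the exposure began and lived on a cycle of light and dark. Each group was 1 library made from 10 pooled brains, so no difference between groups could be checked against replicates or tested. Every interval below covers counting error only, at a level of 95%. The time of day of the dissection was not given in the sources used here, and a difference in the hour of dissection between libraries cannot be told apart from an effect of sex or medium.

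The fly clock is a negative feedback loop of transcription. The proteins Clock (Clk) and Cycle (cyc) bind as a pair to the promoters of period (per), timeless (tim), vrille (vri), Pdp1 and clockwork orange (cwo), and Period and Timeless return to the nucleus to block them. Vrille represses Clk and Pdp1 activates it, Cryptochrome (cry) is a light receptor that sends Timeless to degradation, and the kinases Doubletime (dbt) and Shaggy (sgg) phosphorylate Period and Timeless. In the fly head the transcripts of per, tim and vri are known to peak in the early night and those of Clk and cry around dawn. Clock neurons are few, but glia, photoreceptors and fat body are also known to hold clocks of their own.

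The members lie on 4 chromosome arms of genome release 6. On the X chromosome are sgg (2633952 to 2679553) and per (2685580 to 2692780), next to each other. On 2L are tim (3493986 to 3508119) and vri (5288944 to 5311223), and on 3L are Clk (7763233 to 7775603), Pdp1 (7811458 to 7867369) and cyc (19813770 to 19815938). On 3R are cwo (10388258 to 10400752), cry (19212154 to 19215442) and dbt, named dco in RefSeq (31054085 to 31061210). The gene vib overlaps cry on the opposite strand with 24196 UMIs (unique molecules counted), dyw overlaps per on the opposite strand with 311, and whether the counting used strand was not stated, so cry and per are uncertain by what these genes could add.

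The libraries held 10000 to 25332 nuclei and 33235404 to 53360256 UMIs, with a median of 1374 to 2665.5 UMIs per nucleus. The male NaAsO2 library had exactly 10000 nuclei and none under 1766 UMIs, where the other libraries reached down to 500. Pairs of libraries shared 45 to 135 barcodes, at most 0.75% of the smaller library. The roX1 RNA of males was at 16390 and 22100 CPM (UMIs per 1000000 UMIs, here of the library) in males, against 93.9 and 115 in females, as labelled. Clustering without the clock genes placed 51623 nuclei among neurons, 13176 among glia, 585 among photoreceptors and 604 among fat body. The unnamed nuclei were 2.001 to 2.98% of the other 3 libraries and 12.2% of the male NaAsO2 library, of which 1055 lay in 1 cluster led by CG32726, Uhg4 and Gnmt.

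Markers of 1 class were also found in the others, which sets how low levels can be read. The summed level of 12 broad neuron markers (elav, nSyb, Syt1 and others) in glia was 58.9 to 75.4% of that in neurons, and in fat body 42.9 to 73.1%. In the other direction, 8 broad glia markers reached 19.2 to 29.8% of their glial level in neurons, and 18 photoreceptor markers reached 1.85 to 8.92% of their photoreceptor level there. No empty droplets were analysed here and doublets were kept, so free RNA, doublets and mixed clusters cannot be told apart as the source, and a gene at the same level in every class cannot be assigned to 1 of them.

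All 10 members were detected in every library, with 1979 (per) to 282316 (Pdp1) UMIs in all. Clk, tim, cry and vri differed most between classes, and the others less. Over the 30 clusters, pooled over libraries, the highest level was 206 times the lowest for Clk, 48.4 times for tim, 36.5 times for vri and 24.5 times for cry, and 8.45 times for per, 3.97 for cyc, 2.88 for cwo, 2.59 for Pdp1, 2.16 for dbt and 2.05 for sgg.

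**Figure D1:**
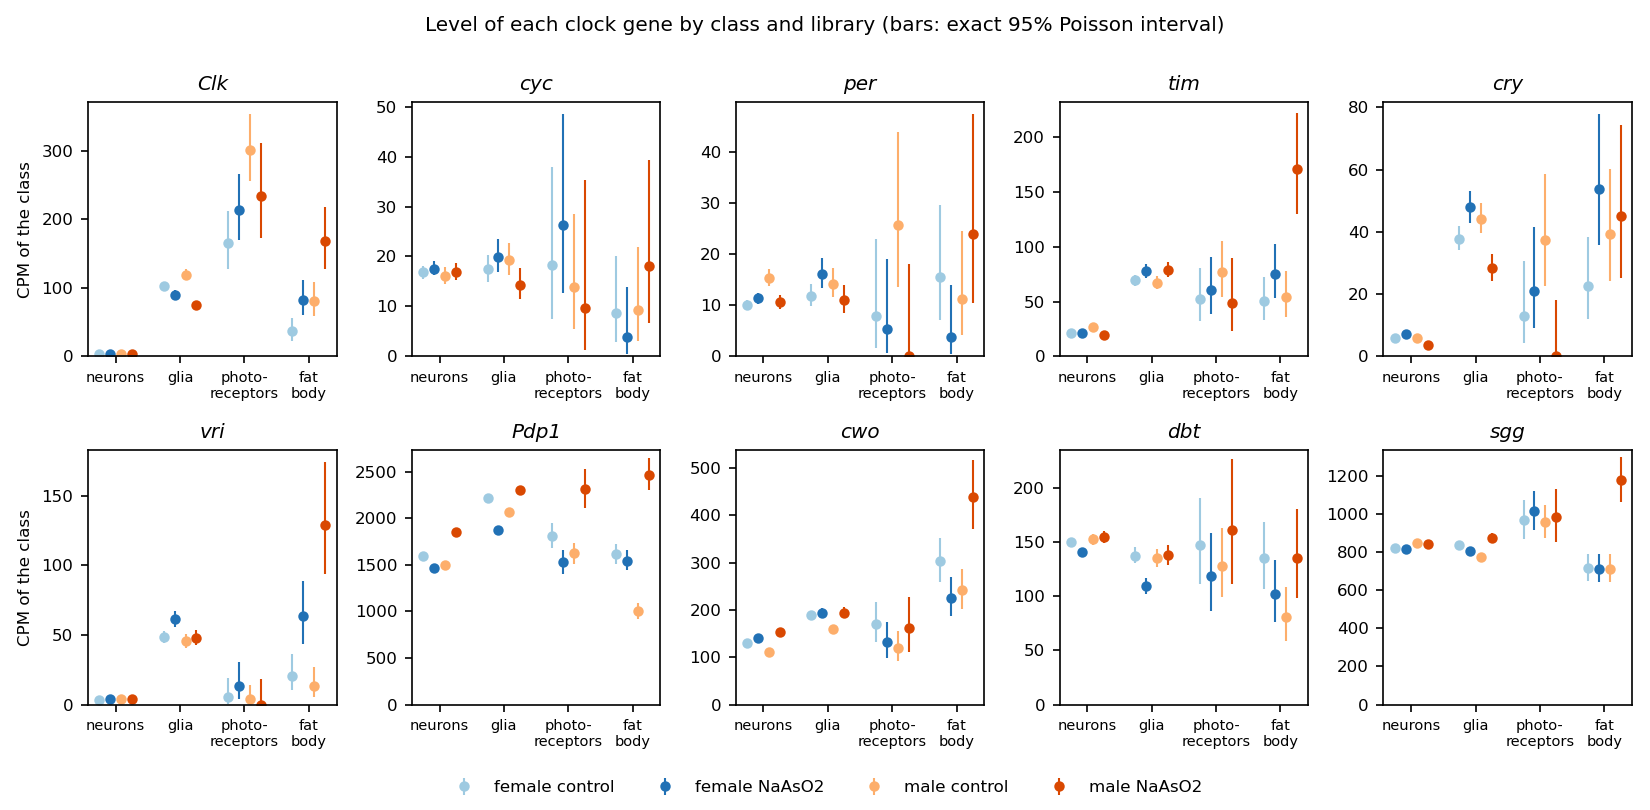
Level of each clock gene (CPM of the class, vertical axis from 0) in neurons, glia, photoreceptors and fat body (horizontal axis) of the 4 libraries (colours). Points are summed counts of 1 library and bars exact Poisson 95% intervals. Clk, tim, cry and vri were low in neurons and higher in glia in all 4 libraries; sgg and dbt were nearly level apart from fat body.

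Of the activators, Clk showed the widest range. In neurons it was at 3.98 CPM in female control, 3.18 in female NaAsO2, 3.69 in male control and 3.75 in male NaAsO2. In glia the levels in the same order were 102, 89.9, 119 and 74.3 CPM, and in photoreceptors 165, 214, 301 and 234 CPM. The ranges of these 3 classes over the libraries did not overlap. Fat body, at 36.4, 82.7, 80.6 and 168 CPM, overlapped glia and, in its highest library, photoreceptors. Glial Clk was 25.7 times the neuronal level in female control, with 28.3, 32.2 and 19.8 times in female NaAsO2, male control and male NaAsO2. With every nucleus thinned to 1000 UMIs, 8.47 to 10.6% of glial nuclei and 0.316 to 0.400% of neuronal nuclei kept a Clk UMI, from 1547 to 2994 and 7006 to 15169 nuclei deep enough to be thinned. Before thinning these shares were 14.5 to 21.7% and 0.475 to 0.985%.

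The partner of Clk, cyc, did not share this pattern. It was at 16.2 to 17.6 CPM in neurons and 14.4 to 19.99 CPM in glia, and the ranges overlapped. In photoreceptors and fat body it rested on 26 and 18 UMIs over the 4 libraries.

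Among the repressors and evening genes, tim and vri were higher in glia, and per was not. Glial tim was at 69.3 CPM in female control, 77.9 in female NaAsO2, 67.2 in male control and 79.0 in male NaAsO2, where neurons had 21.6, 21.5, 26.6 and 19.3 CPM. The 2 ranges did not overlap. Glial vri was at 48.3, 61.2, 45.7 and 47.8 CPM in that order, against 3.12, 4.30, 3.73 and 4.14 in neurons, an 11.5- to 15.5-fold difference within libraries. By contrast per was at 10.1 to 15.4 CPM in neurons and 10.9 to 16.0 CPM in glia, overlapping ranges that, with the share of neuron markers found in glia, do not show where per was made.

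Photoreceptors combined a high Clk with hardly any vri. Their vri counts were 2, 5, 2 and 0 UMIs in female control, female NaAsO2, male control and male NaAsO2, where the interval of the count of 0 reaches 18.0 CPM. Their tim was at 52.5, 60.7, 76.8 and 48.8 CPM, above every neuronal library. The class held 2 clusters, both with Rh2 among their leading genes, the opsin of the ocelli (the simple eyes on top of the head), with Arr1, Arr2, ninaC, trp and trpl. In the cluster of 218 nuclei Clk was at 320 CPM, from 261 to 432 CPM over the libraries. In the cluster of 367 nuclei it was at 137 CPM, from 51.9 to 238 CPM. Markers of all 18 listed photoreceptor genes were present in every library of the class, but their summed level ran from 25151 CPM in male NaAsO2 to 115790 CPM in male control.

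The light receptor gene cry was, like Clk, higher in glia than in neurons, but not higher still in photoreceptors. It was at 37.9 CPM in glia of female control, 47.9 of female NaAsO2, 44.2 of male control and 28.2 of male NaAsO2, against 5.93, 7.20, 6.02 and 3.62 in neurons. The glial level was 6.38 to 7.81 times the neuronal one within libraries. Fat body held cry at 22.5 to 53.8 CPM on 77 UMIs, a range that contains the glial one. In photoreceptors cry had 5, 8, 19 and 0 UMIs.

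The regulators Pdp1 and cwo were present throughout. Pdp1 was at 1467 to 1850 CPM in neurons and 1880 to 2307 CPM in glia, ranges that do not overlap but are close. For cwo, a repressor that tunes the same promoters, neurons had 111 to 153 CPM and glia 159 to 194 CPM, and fat body was higher than both with 225 to 439 CPM. The kinase genes were level. sgg was at 815 to 848 CPM in neurons and 775 to 876 CPM in glia, and dbt at 140 to 155 and 109 to 138 CPM, so dbt was slightly lower in glia in every library.

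Within glia the members did not share 1 ranking. Clk was highest in ensheathing glia, which wrap the neuropil, at 166 CPM pooled (interval 154 to 180), with cortex glia at 110 (103 to 117), subperineurial glia of the blood-brain barrier at 110 (102 to 118), a cluster that mixed perineurial glia with monoaminergic neurons at 74.0 (65.6 to 83.3) and astrocyte-like glia at 50.3 (45.5 to 55.5). The intervals of cortex and subperineurial glia overlapped. The mixed cluster of 1596 nuclei was led by ITP, Vmat, SerT and Tdc2, genes of peptide and amine neurons, beside Tret1-1 and pippin of perineurial glia. At clustering resolution 2, 1061 of its nuclei lay in a cluster of such neurons and 513 in a perineurial cluster of 1377 nuclei, whose Clk was at 167 CPM in female control, 209 in female NaAsO2, 173 in male control and 148 in male NaAsO2. In that cluster of neurons, of 1631 nuclei, Clk was at 34.0, 26.0, 65.2 and 39.9 CPM in the same order. The rank of perineurial glia therefore depends on the clustering. For cry the highest level was in subperineurial glia at 62.9 CPM (57.2 to 69.0) and the lowest in astrocyte-like glia at 19.2 (16.2 to 22.5). vri was at 71.6 CPM in cortex and 71.1 in subperineurial glia, with overlapping intervals, and at 22.1 and 17.3 in astrocyte-like glia and the mixed cluster. Astrocyte-like glia, which clear transmitters from synapses, were low in Clk, cry and vri but held tim at 87.5 CPM (81.1 to 94.3), beside 101 (91.4 to 111) in ensheathing glia. The order of the pair differed by sex: tim was at 102 and 103 CPM in astrocyte-like and 89.1 and 101 in ensheathing glia of females (control, NaAsO2), and at 67.2 and 75.1 against 126 and 99.8 in males. Of its 685 tim UMIs, 184 came from a cluster of 669 astrocyte-like nuclei with tim at 233 CPM (201 to 270), the highest of all 30 clusters. Its libraries ran from 80.4 to 282 CPM and its median nucleus had 782 UMIs. It held 298 and 265 nuclei of females (control, NaAsO2) and 80 and 26 of males. In the other astrocyte-like cluster, of 3034 nuclei, tim ran only from 65.6 to 76.2 CPM over the libraries. The part of this uneven membership in the order by sex was not tested.

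**Figure D2:**
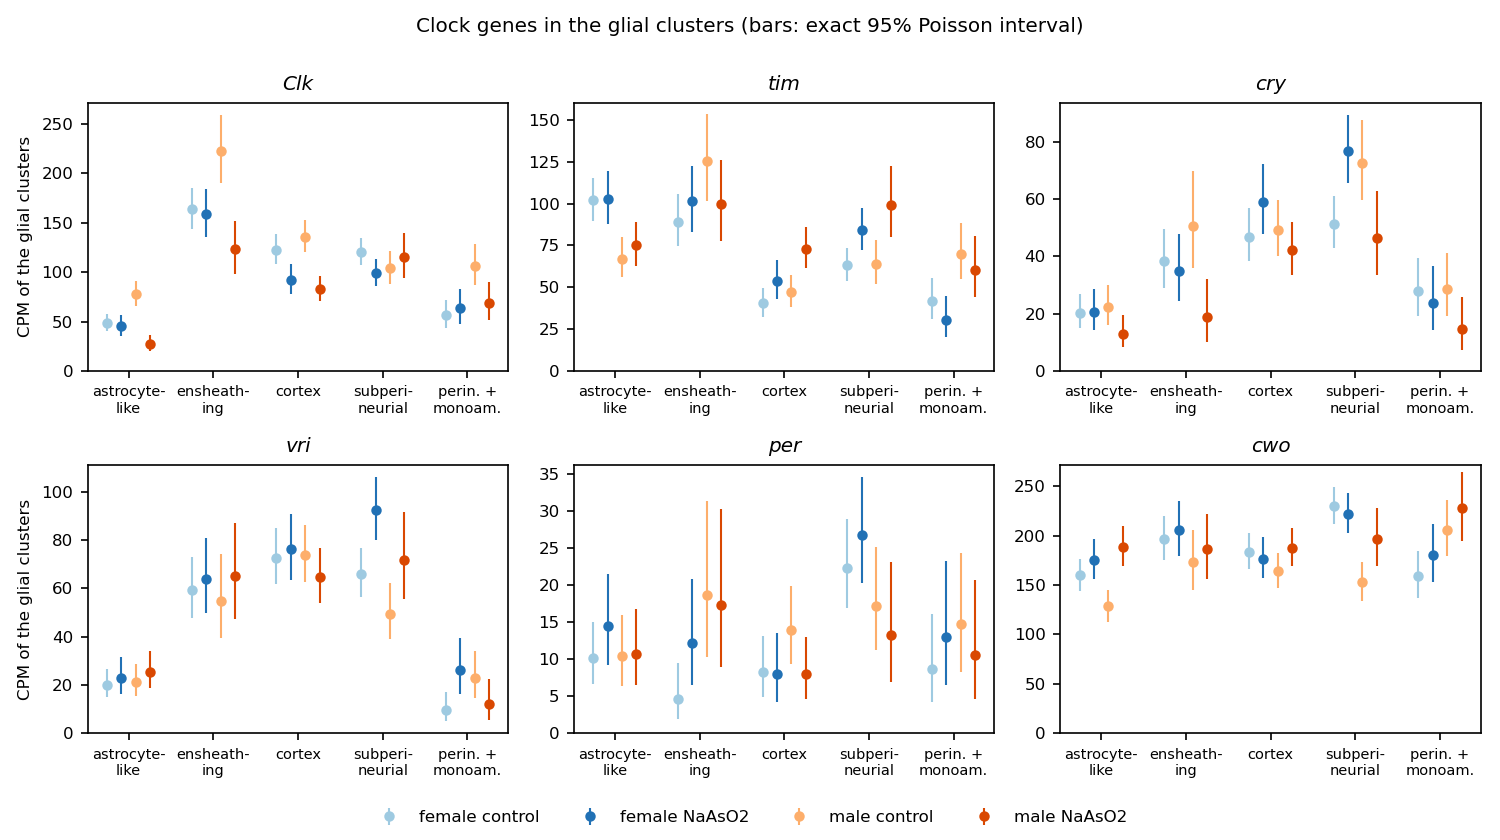
Clk, tim, cry, vri, per and cwo (CPM of the glial clusters, vertical axes from 0) in 4 glial groups and the cluster mixing perineurial glia with monoaminergic neurons (horizontal axis) of the 4 libraries (colours). Bars are exact Poisson 95% intervals. Of the groups shown, Clk was highest in ensheathing glia in each library, and the male NaAsO2 point of Clk was below the male control point in every group but subperineurial glia.

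The cluster of 1626 subperineurial nuclei had the highest per of the 30 clusters, 24.2 CPM (19.3 to 29.99), and its leading genes included wat and Cyp18a1 beside ltl and Idgf4. When 30 in place of 10 principal components were used, 433 nuclei led by wat, emp and ovo formed a cluster of their own, which had the highest per and vri of its 40 clusters. There per was at 123 CPM in female control, 140 in female NaAsO2, 46.5 in male control and 44.7 in male NaAsO2. vri was at 334, 384, 144 and 208 CPM in the same order, and cwo at 605, 477, 316 and 447. The female libraries were above the male ones in all 3 genes, on 6 to 39 UMIs per library for per. These nuclei met the marker rule of no class and stay unnamed. Plasmatocytes, the blood cells, held tim at 176 CPM (156 to 197), second among the 30 clusters.

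Over the 30 clusters, as a description that shares libraries and depth between points, the Pearson correlation of log2(CPM + 10) was 0.85 between Clk and cry, 0.84 between cry and vri, 0.74 between tim and vri, and 0.73 between Clk and vri. That of per with each of tim, Clk, cry and vri lay between -0.01 and 0.05. Among all genes with at least 1000 UMIs, those most like Clk were Tab2 (0.95), ttk (0.93) and CG15706 (0.92), and those most like vri were Samuel (0.97), l(2)gl (0.96) and CHKov1 (0.95). Those most like cry were foxo (0.92), CG5001 (0.89) and dsx (0.88), those most like tim CG3376 (0.85), Chd64 (0.85) and IP3K2 (0.84), and those most like cwo cnc (0.82), CG17646 (0.81) and Sox14 (0.80). For Pdp1 they were emc (0.83), CG12355 (0.82) and wkd (0.80), and for per form3 (0.82), jbug (0.79) and CG11147 (0.78). The level genes were most like DIP2 (0.93), vib (0.90) and CG41099 (0.89) for dbt, EloA (0.81), CG6966 (0.80) and wnd (0.77) for sgg, and ERp44 (0.74), CG2889 (0.71) and CAH8 (0.70) for cyc. Of these, CHKov1, wkd and the genes named for dbt, sgg and cyc had no part in the clustering, while the others were among its 3000 genes.

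Clock neurons were found through Pdf, the neuropeptide of the ventral lateral neurons that drive the morning activity of the fly. Nuclei with at least 100 Pdf UMIs numbered 18 of 19188 in female control, 7 of 25332 in female NaAsO2, 28 of 14895 in male control and 1 of 10000 in male NaAsO2. Pdf was found at a lower level in every class, so this threshold, chosen after its values were seen, was set high. The 54 nuclei held 107 to 6378 Pdf UMIs each and lay among neurons (42), unnamed nuclei (8), glia (2) and photoreceptors (2).

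These nuclei were rich in 4 clock genes. Pooled over libraries, tim was at 627 CPM (524 to 745) against 21.2 in the other neurons, a 29.7-fold difference, and was seen in 31 of the 54 nuclei. Clk was at 106 CPM (66.5 to 161) against 3.56, 29.8-fold higher, and cry at 159 CPM (110 to 224) against 5.66, 28.1-fold higher. cwo was at 502 CPM (410 to 608) against 133, 3.78-fold higher. In both control libraries alone tim was at 672 and 620 CPM, Clk at 94.5 and 97.3, and cry at 147 and 158, in females and males.

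per and vri did not follow. In the Pdf-rich nuclei per had 3 UMIs, 14.5 CPM (2.99 to 42.3), an interval that holds the 11.6 CPM of the other neurons. vri had 0 of 207259 UMIs, with an interval up to 17.8 CPM that holds the 3.78 CPM of the other neurons. cyc (14.5 CPM, 2.99 to 42.3) and dbt (121 CPM, 78.1 to 178) could not be told apart from other neurons either, while Pdp1 (1148 CPM, 1007 to 1304) and sgg (627 CPM, 524 to 745) were lower than the 1585 and 828 CPM there.

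**Figure D3:**
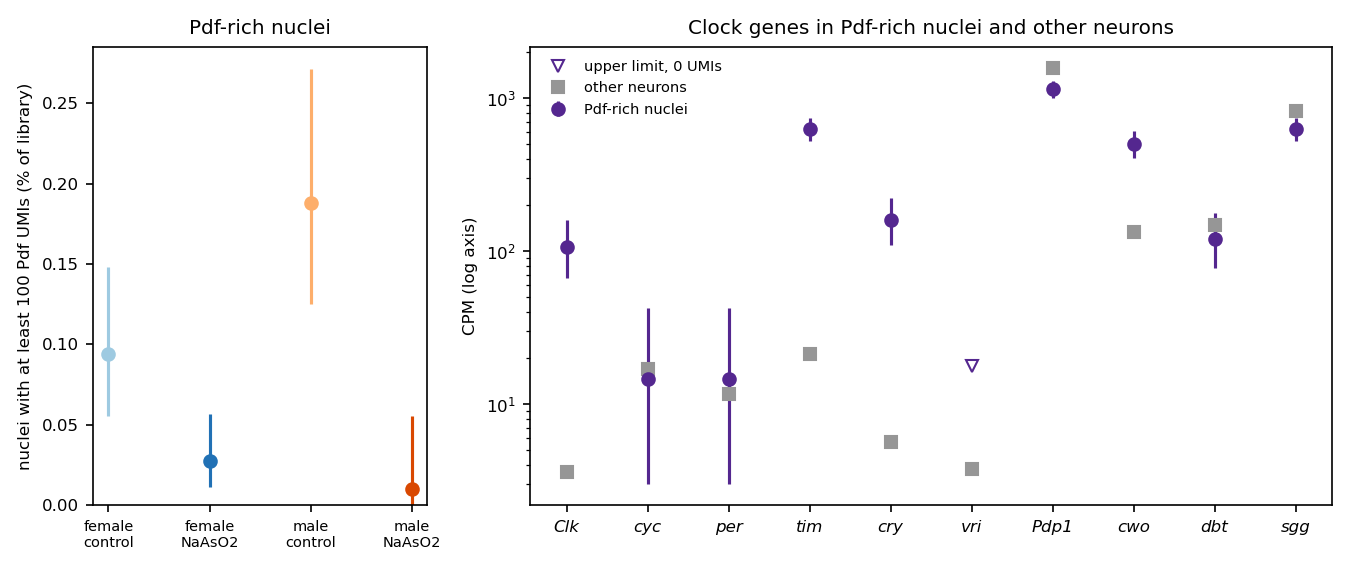
Left, share of nuclei with at least 100 Pdf UMIs (percent of the library, vertical axis from 0) in the 4 libraries with exact binomial 95% intervals. Right, level of each clock gene (CPM, log axis) in these 54 nuclei pooled over libraries (circles, exact Poisson 95% intervals; the triangle is the upper bound of the 95% interval of vri, which had 0 UMIs) and in the other neurons (squares). Clk, tim, cry and cwo lie far above the other neurons.

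Pdf was also the only one of 38 other clock pathway genes that was past 1.5-fold in the same direction in both sexes in 1 class with at least 200 UMIs. The share of all genes that pass this rule in both sexes was not computed. In neurons it was at 542 CPM in female control and 132 in female NaAsO2, and at 628 in male control and 23.8 in male NaAsO2. The log2 ratio of NaAsO2 over control was -2.04 (-2.08 to -1.99) in females and -4.72 (-4.85 to -4.60) in males, and in glia, where Pdf was at 121, 49.0, 207 and 17.5 CPM, it was -1.302 and -3.57. Over whole libraries, whatever the class, Pdf was at 477 and 136 CPM in females (-1.81) and at 520 and 52.2 CPM in males (-3.31), and the 1 Pdf-rich nucleus of male NaAsO2 was among the unnamed. The Pdf-rich nuclei carried 76.3% of the Pdf UMIs in female control, 65.5% in female NaAsO2, 82.6% in male control and 11.1% in male NaAsO2. Outside them Pdf was at 113, 47.0, 90.9 and 46.4 CPM. The share of Pdf-rich nuclei was 0.0938% (0.0556 to 0.148) and 0.0276% (0.0111 to 0.0569) in females, and 0.188% (0.125 to 0.272) and 0.0100% (up to 0.0557) in males. The 2 intervals did not overlap in males and did by a small margin in females. With at least 20 Pdf UMIs the numbers were 36 and 16 in females and 42 and 4 in males. Of these 98 nuclei 32 held a tim UMI, against 31 of the 54 with at least 100 Pdf UMIs. Most nuclei added by the lower threshold thus showed no tim. Fewer cells with Pdf and less Pdf RNA per cell cannot be told apart below these thresholds.

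After NaAsO2 in females the clock genes themselves differed little. A gene was counted as higher or lower when the CPM of a class was past 1.5-fold and both libraries held at least 50 UMIs together. Of 31 pairs of gene and class, 1 was higher and 0 were lower. The 1 was Clk in fat body (36.4 and 82.7 CPM, log2 ratio 1.19, 0.40 to 2.01), in 1 of 6 members measured there, where 18.4% of all genes were as much higher. In fat body 15.5% of all genes were lower. In neurons 0 of 10 members were past the fold, where 3.76% of all genes were higher and 1.15% lower, and in glia 0 of 10, where 7.07% were higher and 1.65% lower. In photoreceptors 0 of 5 were, where 4.17% were higher and 6.08% lower. Over whole libraries 0 of 10 were, where 6.46% were higher and 1.23% lower. Clk in fat body rested on 64 UMIs and reached the minimum of 50 UMIs through the NaAsO2 library. Too few were left to compute it after thinning to 1000 UMIs per nucleus. Under the minimum, fat body cry had 13 and 28 UMIs and fat body vri 12 and 33. Below 1.5-fold, intervals left out 0 in glia for vri (48.3 and 61.2 CPM, log2 0.34, 0.15 to 0.53), cry (0.34, 0.12 to 0.55), per (0.43, 0.05 to 0.82) and tim (0.17, 0.01 to 0.33), which were higher, and for Clk (-0.18, -0.33 to -0.04), Pdp1 (-0.24, -0.27 to -0.21), dbt (-0.33, -0.46 to -0.21) and sgg (-0.06, -0.10 to -0.01), which were lower. In neurons they left out 0 for vri (3.12 and 4.30 CPM, 0.47, 0.12 to 0.82), cry (0.28, 0.02 to 0.54) and cwo (0.11, 0.05 to 0.17), which were higher. Neuronal Pdp1 (-0.12, -0.13 to -0.10) and dbt (-0.10, -0.15 to -0.04) were lower. Neuronal vri was past 1.5-fold once the highest Scrublet (doublet) scores were removed.

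In males on NaAsO2, Clk and cry were lower in glia and every measured member was higher in fat body. Of 32 pairs, 3 were lower and 7 were higher. In glia 2 of 10 members were lower, beside 30.8% of all genes, and 0 higher, beside 3.59%. Clk was at 119 CPM in male control and 74.3 in male NaAsO2 (log2 ratio -0.68, -0.84 to -0.51), and cry at 44.2 and 28.2 (-0.65, -0.92 to -0.38). In neurons 1 of 10 was lower, beside 30% of all genes, and 0 higher, beside 2.94%. It was cry, at 6.02 and 3.62 CPM (-0.74, -1.15 to -0.33). Below 1.5-fold, per (15.4 and 10.6 CPM, -0.54, -0.78 to -0.30) and tim (26.6 and 19.3 CPM, -0.46, -0.64 to -0.29) were also lower in neurons, and Pdp1 (0.31) and cwo (0.46) higher, with intervals that left out 0. Both shares of members are below those of all genes. In photoreceptors 0 of 5 members were past the fold, where 30.8% of all genes were higher and 26.0% lower. Over whole libraries the same 2 genes, Clk (35.6 and 21.7 CPM) and cry (16.1 and 9.48 CPM), were lower, 2 of 10 members beside 23.2% of all genes, and 0 were higher beside 3.88%.

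These shares of all genes carry a shift of the male libraries, whose median gene was at a log2 ratio of -0.26 in glia and -0.28 in neurons. Relative to that median, glial Clk was at -0.42 and cry at -0.39, and 0 members remained past 1.5-fold lower, while Pdp1 (0.59) and cwo (0.75) were past it in neurons. As mean UMIs per nucleus, with no scaling for depth, the sign of both turned (0.49 for Clk and 0.52 for cry), as the male NaAsO2 nuclei held more UMIs. The glial Clk ratio was -0.22 with each nucleus thinned to 1000 UMIs, -0.30 in nuclei of at least 1766 UMIs and -0.45 with 30 principal components, all short of 1.5-fold, and cry was -0.39, -0.66 and -0.49 in the same settings. With the same number of the deepest nuclei in each library Clk was at -0.31 and cry at -0.62. Without the mixed cluster and the subperineurial cluster led in part by wat and Cyp18a1, Clk was at -0.77 and cry at -0.53, so that cry was short of 1.5-fold. In glia of these libraries the 12 neuron markers, all above 0, summed to 18104 CPM in male control and 24832 in male NaAsO2, and the 8 glia markers, all above 0, to 2714 and 1969 CPM. Their part in the lower Clk and cry was not tested. Among the other glial members cwo was higher (159 and 194 CPM, 0.29, 0.17 to 0.41), as were tim (67.2 and 79.0 CPM, 0.23, 0.05 to 0.42), sgg (0.18) and Pdp1 (0.16), all 3 with intervals above 0. cyc was lower (19.3 and 14.4 CPM, -0.43, -0.83 to -0.03), and per was at 14.2 and 10.9 CPM (-0.38, -0.85 to 0.08).

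The lower glial Clk of males was found in 3 of 4 named glial groups and in the mixed cluster, which also holds neurons. In astrocyte-like glia it was at 78.1 and 27.7 CPM (log2 ratio -1.496, -1.99 to -1.02), in ensheathing glia at 223 and 123 (-0.86, -1.25 to -0.47), in cortex glia at 136 and 82.6 (-0.72, -1.002 to -0.43) and in the cluster of perineurial glia and monoaminergic neurons at 107 and 68.4 (-0.64, -1.14 to -0.15). In the perineurial cluster of resolution 2 it was at 173 and 148 (-0.23, -0.73 to 0.26). In the cluster of monoaminergic neurons of that resolution Clk was at 65.2 and 39.9 CPM (-0.71, -1.43 to -0.03). There cry was at -1.67 (-3.40 to -0.28) on 28 and 5 UMIs. The value of the mixed cluster is therefore not one of glia alone. Subperineurial glia were the exception, with 104 and 115 CPM (0.15, -0.22 to 0.51). They joined 2 clusters, and the share of their nuclei in the one with more Clk was 31.8% in male control and 48.0% in male NaAsO2. Within each, male Clk was level, at 57.2 and 57.0 CPM in one (-0.0042, -0.75 to 0.71) and at 165 and 174 in the other (0.08, -0.36 to 0.51). cry was below 0 in all 4 groups with at least 50 UMIs, from -1.43 in ensheathing glia to -0.23 in cortex glia. In females the Clk ratio ran from -0.42 in cortex glia to 0.17 in the mixed cluster.

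The 38 other genes of the clock pathway, a list of regulators of clock protein stability and translation, transcription factors and genes of light input and output, were counted by the same rule. In neurons of females 0 were higher and 2 of 37 lower, beside 3.76% and 1.15% of all genes. In neurons of males 0 were higher and 6 of 36 lower, beside 2.94% and 30% of all genes. In glia of females 0 were higher and 1 of 36 lower, beside 7.07% and 1.65% of all genes. In glia of males 1 was higher and 3 of 35 lower, beside 3.59% and 30.8% of all genes. In fat body of females 0 were higher and 4 of 27 lower, beside 18.4% and 15.5% of all genes. In fat body of males 13 of 25 were higher and 0 lower, beside 36.9% and 16.0% of all genes. In photoreceptors of females 1 was higher and 3 of 26 lower, beside 4.17% and 6.08% of all genes. In photoreceptors of males 8 of 23 were higher and 2 lower, beside 30.8% and 26.0% of all genes.

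**Figure D4:**
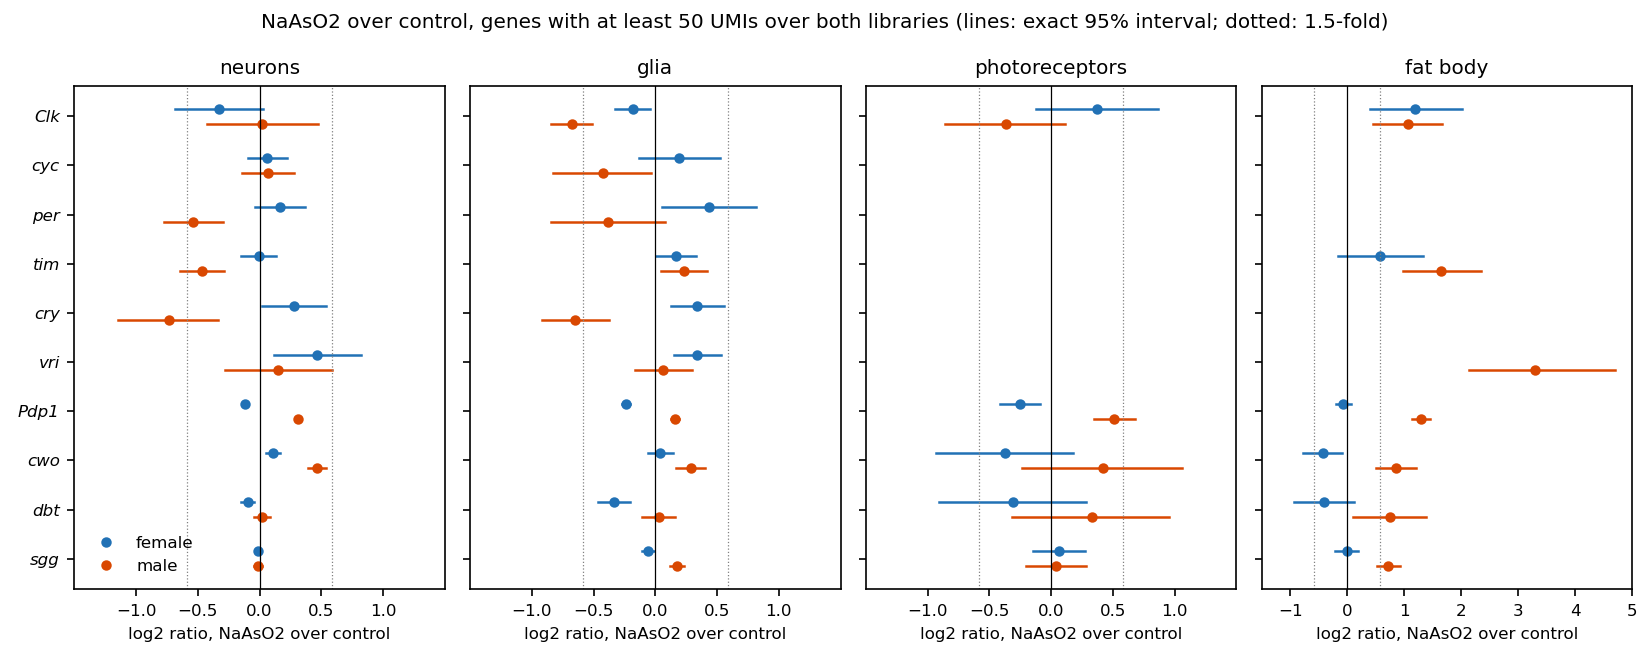
Log2 ratio of NaAsO2 over control (horizontal axis) of each clock gene (rows) in 4 classes, in females (blue) and males (orange), for pairs with at least 50 UMIs. Lines are exact 95% intervals for counting error and dotted lines mark 1.5-fold; the fat body panel has a wider axis. Glial Clk and cry of males lie to the left, and all 7 fat body values of males lie to the right of the upper dotted line.

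In fat body of males all 7 members measured were higher, beside 36.9% of all genes higher and 16.0% lower. tim was at 54.3 CPM in male control and 171 in male NaAsO2 (log2 ratio 1.66, 0.99 to 2.35), and Clk at 80.6 and 168 (1.06, 0.46 to 1.67). vri was at 13.1 and 129 CPM (3.30, 2.14 to 4.70) on 7 and 43 UMIs, so that it reached the minimum of 50 UMIs through the NaAsO2 library. At an unchanged level tim would have missed that minimum too, so vri and tim are among the 7 because they were high there. Pdp1 was at 1001 and 2469 CPM (1.304, 1.14 to 1.46), and cwo (0.86), dbt (0.75) and sgg (0.73) were nearer to the fold of 1.5.

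The fat body values stand on 192 and 88 nuclei, and the whole class moved: the median of all genes was at 0.41, and relative to it tim, Clk, vri and Pdp1 remained past 1.5-fold and the other 3 did not. The summed level of the 16 fat body markers, all 16 above 0 in both libraries, was 108880 CPM in male control and 40556 in male NaAsO2. In fat body of females it was 20073 and 42246 CPM, and the ratios of Clk and tim were 1.19 and 0.58, those of Pdp1, cwo, dbt and sgg between -0.43 and -0.01. In fat body of males the 12 neuron markers, all above 0, summed to 11946 and 20239 CPM and the 8 glia markers, all above 0, to 845 and 1115 CPM, with a median glia marker at 121 and 101 CPM. The part of these shifts in the clock gene values was not tested. With each nucleus thinned to 1000 UMIs only Pdp1 kept both 50 UMIs and the fold.

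A ratio within a library needs no scaling by the library total. The summed UMIs of per, tim and vri, which peak in the early night, were set against those of Clk and cry, which peak around dawn. In neurons the log2 of this ratio was 1.81 in female control, 1.84 in female NaAsO2, 2.23 in male control and 2.21 in male NaAsO2. In glia it was -0.11, 0.17, -0.36 and 0.43, so both NaAsO2 libraries lay above both controls. In photoreceptors it was -1.44, -1.57, -1.67 and -2.26, and in fat body 0.56, 0.06, -0.61 and 0.61.

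In glia the ratio was higher after NaAsO2 in both sexes, by 0.28 (0.12 to 0.45) in females and by 0.78 (0.59 to 0.98) in males. It was higher in each of the 4 named glial groups and the mixed cluster in both sexes, from 0.15 in astrocyte-like to 0.39 in subperineurial glia of females, and from 0.33 in the mixed cluster to 1.47 in astrocyte-like glia of males. The intervals left out 0 in 4 of these 5 in males and in 2 of 5 in females. The members of a set did not all move together. In female glia per (0.43), tim (0.17) and vri (0.34) were higher and Clk (-0.18) lower, but cry was higher too (0.34). In male glia tim was at 0.23, vri at 0.06 and per at -0.38, with Clk at -0.68 and cry at -0.65. The male value thus reuses the lower Clk and cry given above. Neurons have the higher ratio, and the neuron markers in glia summed to 21473 and 17989 CPM in females and 18104 and 24832 in males, so they were lower after NaAsO2 in females and higher in males. Their part in the ratio was not tested. Without the mixed cluster and the one led in part by wat the difference was 0.32 in females and 0.81 in males. In neurons it was level, at 0.03 (-0.20 to 0.26) and -0.03 (-0.34 to 0.29). In fat body it was -0.50 (-1.28 to 0.29) in females and 1.21 (0.50 to 1.92) in males, and in photoreceptors -0.13 (-1.02 to 0.77) and -0.59 (-1.67 to 0.49), on 58 to 226 UMIs a library. With each glial nucleus scaled to the same total the female value was 0.09.

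**Figure D5:**
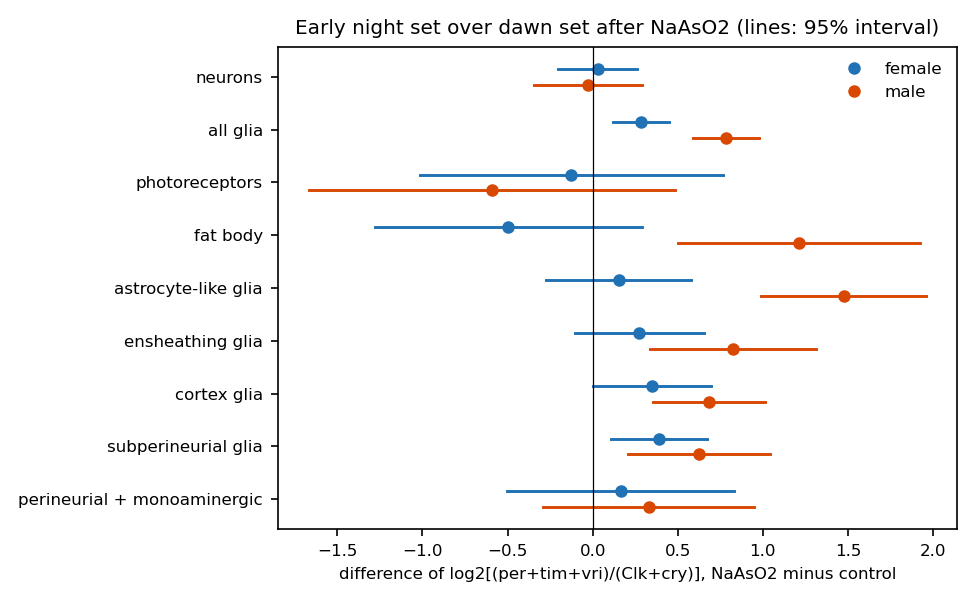
Difference between NaAsO2 and control in the log2 ratio of per, tim and vri UMIs to Clk and cry UMIs (horizontal axis), by class and glial group (rows), in females (blue) and males (orange). Lines are 95% intervals for counting error. All 10 values of the glial groups and the mixed cluster lie above 0, while neurons lie at 0.03 and -0.03.

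On control medium, males and females were compared in the same way. Of 32 pairs, 3 were higher in males and 2 lower. In neurons per was higher (10.1 CPM in females and 15.4 in males, log2 ratio 0.61, 0.40 to 0.81), 1 of 10 members beside 11.7% of all genes higher and 3.53% lower. Relative to the median gene it was 0.48, in nuclei of at least 1766 UMIs 0.45 and with 30 principal components 0.54, short of 1.5-fold. per lies on the X chromosome, as does sgg, whose ratio was 0.05. In photoreceptors Clk was higher (165 and 301 CPM, 0.87, 0.43 to 1.31), 1 of 6 members beside 15.9% of all genes higher and 24.4% lower, in a class whose marker sum was 47032 CPM in females and 115790 in males. In fat body Clk was higher (36.4 and 80.6 CPM, 1.15, 0.36 to 1.98), 1 of 6 beside 17.1% of all genes. This Clk value rested on 21 UMIs in females and 43 in males and reached the minimum UMI count through the male library. At the female level in both libraries it would have missed that minimum. It was not among the higher pairs after thinning or under the highest UMI minimum tried. Fat body Pdp1 (-0.69, -0.85 to -0.54) and dbt (-0.74, -1.32 to -0.19) were lower, 2 of 6 beside 43.0%. In glia 0 of 10 members were past 1.5-fold, where 7.54% of all genes were higher and 3.75% lower in males. Over whole libraries 0 of 10 were, where 13.9% of all genes were higher and 3.25% lower. Relative to the median gene, at -0.49 in fat body, Pdp1 (-0.20) and dbt (-0.26) were short of 1.5-fold. The male control library is also the 1 against which the male NaAsO2 library was set, so these values and those after NaAsO2 in males share its counting error.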

How the data were processed

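Brains were made into 10x Genomics single nucleus libraries. The authors deposited raw UMI counts per gene and nucleus from Cell Ranger (3.1 in the study's methods and the submitters' processing notes, 7.0.1 in the matrix header) on genome release 6, and the notes also name Seurat 3. Whether intronic reads were counted was not given in the sources used here. The deposited counts were used whole, with the cells called by the authors and with doublets kept.

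The clock genes and all lists were chosen with earlier results of these data known, and the marker thresholds and the Pdf threshold after the values were seen. Of 17772 locus tags, 17705 matched a symbol of RefSeq (release 6). Counts of each library were turned into Pearson residuals (theta 100) on 3000 genes, without the members, 38 other clock pathway genes, roX, yolk protein, metallothionein, Turandot, mitochondrial and ribosomal RNA genes. Nuclei were clustered on 10 principal components (20 neighbours, Louvain resolution 1; Python 3.11.15, NumPy 2.4.6, SciPy 1.17.1, python-igraph 0.11.9). A cluster was named when at least 2 of its 10 leading genes were on a marker list and at least 50% of that list was 1.5-fold up. Glia also needed 2 of repo, loco and nrv2, and neurons a median ratio of 1.3 over 12 broad markers.

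Counts were summed per class and library and divided by all UMIs of the class (CPM). Levels carry exact Poisson intervals, ratios exact conditional binomial ones, and differences of log2 ratios intervals from the counts' variances. Nuclei of 1 library are not replicates, so no test was made. All 10 members were named. Of the 38 other genes, those past 1.5-fold in both sexes in the same direction and class with at least 200 UMIs were named. The 3 genes most like each member were taken by Pearson correlation over clusters. Alternatives were mean UMIs per nucleus, centring on the median gene, equal weight per nucleus, thinning to 1000 UMIs, nuclei of at least 1766 UMIs, fixed cluster weights, removal of the highest Scrublet scores (scanpy 1.11.5; 0.8% per 1000 nuclei), 30 components, resolution 2, minima of 20 and 200 UMIs and a 2-fold threshold. The ratio and its interval were run on simulated Poisson counts, the model that the interval itself assumes. The simulation held no spread between nuclei, brains or libraries, so it cannot show whether the intervals cover such spread.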

Additional observations from a re-analysis of the deposited data

Results flagged for a closer look

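Of the pairs of gene and class measured (31 in females and 32 in males), 7 had counting intervals on opposite sides of 0. For these the interval of the log2 ratio of NaAsO2 over control lay above 0 in 1 sex and below 0 in the other. The share of all genes with this pattern was not computed, so the 7 cannot be read as particular to clock genes. The difference between the sexes was not tested, since each sex had 1 library per medium. These ratios were not centred on the median gene, which itself lay on opposite sides of 0. In females and males it was at 0.08 and -0.28 in neurons and 0.03 and -0.26 in glia. In photoreceptors it was at -0.02 and 0.16, and in fat body at -0.13 and 0.41. The lower value of cry in males went with a higher one in females: the male ratio minus the female ratio was -1.01 in neurons (0.28 in females, -0.74 in males) and -0.985 in glia (0.34 and -0.65). For Pdp1 it was the reverse, with a difference of 0.424 in neurons (-0.12 and 0.31), 0.40 in glia (-0.24 and 0.16) and 0.76 in photoreceptors (-0.25 and 0.51). It was 1.29 for cwo in fat body (-0.43 and 0.86) and 0.232 for sgg in glia (-0.06 and 0.18). The part of glial RNA in the neuronal cry values was not tested.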

How the results depend on the processing

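Over all alternatives, 120 values of the counts and early night to dawn ratios stayed close to the value given and 36 moved. A ratio was close when it lay inside the counting interval of the value given, and a count when within 1.5-fold of it. A ratio near 0 could therefore stay close and change sign. The early night to dawn ratio of male neurons kept its sign in only 3 of 9 alternatives. For single genes 843 stayed close, 178 moved and 2 that had been past 1.5-fold reversed. Counting also values short of 1.5-fold, 94 had the other sign, 27 of them as mean UMIs per nucleus. The 2 were male glial Clk (0.49) and cry (0.52) as mean UMIs per nucleus. That setting gave 2 pairs higher and 11 lower in females, 20 higher and 0 lower in males, and 7 lower in males against females. Its counts carry the depth of the libraries, with a median of 2222 and 1374 UMIs per nucleus in females (control, NaAsO2) and 1827 and 2665.5 in males. The share of all genes past the fold was not computed under this or the other alternatives. Centring on the median gene gave 2 higher in females, 0 lower in males and 0 lower between the sexes. Each nucleus scaled to the same total gave 2 higher and 1 lower in females, 5 lower in males, 5 higher and 0 lower between the sexes, and 0.092 for the early night to dawn ratio in glia of females. Thinning gave 0 higher in females, 1 higher in males and 0 lower between the sexes, and for that ratio 2.46 in fat body of females, 0.50 in glia, 1.27 in photoreceptors and 2.11 in fat body of males. Fixed cluster weights gave 5 higher between the sexes. Removal of high Scrublet scores and resolution 2 each gave 2 higher in females, and 30 components gave 2 lower in females and 1 in males. A minimum of 20 UMIs gave 3 higher in females and 5 between the sexes, and 200 UMIs gave 0 higher in females, 3 higher in males and 1 lower between the sexes. A 2-fold threshold gave 4 higher and 0 lower in males, and 1 higher and 0 lower between the sexes. Chosen after seeing the data, glia without 2 clusters of mixed leading genes gave 2 higher in females and lost cry in male glia, and equal numbers of the deepest nuclei lost Clk in male glia, vri in male fat body and per in neurons between the sexes and gained tim in male glia. The causes were not tested. The early night to dawn ratio of glia kept its sign in 9 of 9 alternatives in both sexes. With 1 library per group no replicate could be left out, and low counts in photoreceptors and fat body limit what could be seen there. No paired analysis was possible because each group had 1 library and no test was made.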
